A study of Gallus gallus with 6 samples.

Results

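Members of the miR-130, miR-301 and miR-454 family were followed in the leg muscle of Xinghua chickens (Gallus gallus). The family was taken as every entry whose name holds miR-130, miR-301 or miR-454 as a whole number, with any letter and arm. The deposited files held 12 such entries among 846, of which 534 carried a chicken miRNA name. They are gga-miR-130a-5p, gga-miR-130a-3p, gga-miR-130b-5p, gga-miR-130b-3p, gga-miR-130c-5p, gga-miR-130c-3p, gga-miR-301a-5p, gga-miR-301a-3p, gga-miR-301b-5p, gga-miR-301b-3p, gga-miR-454-5p and gga-miR-454-3p, given below without the species prefix. Muscle was taken from embryos at day 11 (E11) and day 16 (E16) of incubation and from chicks on day 1 post hatch (P1), with 2 samples per age. All were from females, and the labels give no treatment. Whether the 2 samples of an age are separate animals is not stated, so the p-values cover the spread between these samples alone, and that spread may be technical.

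A miRNA is cut from a hairpin RNA, and either side of the hairpin, the 5p or the 3p arm, can be loaded into the silencing complex. Target choice rests mainly on the seed, a short stretch near the start of the mature strand. The 3p arms of miR-130, miR-301 and miR-454 share a seed and by that rule can recognise overlapping sets of messenger RNAs. In human and mouse preadipocytes miR-130 represses PPARG, the master regulator of fat cell formation, and in human endothelial cells miR-130a represses the growth-restraining homeobox gene GAX. No mature sequences are shown, since none of the sources used here holds them.

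In the RefSeq gene table for assembly GRCg7b, all 6 hairpin genes were found, in 2 groups of neighbours with no other listed gene between them. One group of 4 runs MIR130B, MIR454, MIR301A and MIR130A. The other is the pair MIR301B and MIR130C. That table gives both gga-mir-301a and gga-mir-301b as synonyms of MIR301A and of MIR301B, so which miR-301 entry belongs to which group is uncertain. How alike the 3p arms are beyond their shared seed is not shown here. No source used tells how reads matching more than 1 of them were counted. No family entry had counts within 10% of another entry in every library, or within 3 counts of it in every library, a check that left out miR-454-5p for its near-zero counts. It finds nearly identical entries only and cannot show whether reads were shared in part between arms.

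Library totals lay between 303556 and 2641042 counts, lowest at E11 and highest at P1. Muscle markers (13 entries of miR-499, miR-206, miR-208, miR-133 and miR-1) made up 1.04% to 1.28% of an E11 library, 7.37% to 7.92% of an E16 library and 12.1% to 15.4% of a P1 library. Epithelial markers (8 entries of miR-200, miR-203, miR-205 and related miRNAs) made up 1.18% to 1.21% at E11, then 0.0158% to 0.0447% at E16 and 0.00309% to 0.0997% at P1. Cartilage markers (miR-140 and miR-455, 4 entries) took 0.329% to 0.525%, 0.137% to 0.148% and 0.0872% to 0.0971% at E11, E16 and P1. The endothelial miR-126 arms took 1.55% to 2.18%, 3.77% to 4.84% and 5.04% to 5.96%. The erythroid (3 entries) and leukocyte (3 entries) lists reached at most 3.05% and 0.0706% of any library. Both values were those of P1 replicate 1, against 0.622% and 0.0204% in P1 replicate 2. The higher epithelial value at P1 was also that of P1 replicate 1. The part that this change in make-up has in the family's values was not tested. In such bulk samples, fewer cells of a type and less RNA per cell cannot be told apart.

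As a whole, the family was a small fraction of muscle miRNA. It took 1.99% and 2.83% of all counts in the E11 libraries, 1.69% and 1.36% at E16, and 1.06% and 1.31% at P1. The 3 ages did not overlap, with E11 highest and P1 lowest, though E16 replicate 2 and P1 replicate 2 lay close together. The highest exact binomial 95% interval at P1 ended at 1.33%, and the lowest at E11 began at 1.94%. These intervals cover counting error only, since reads without molecular identifiers are not independent molecules. On the scale of TMM-normalized counts (CPM), in which each library is brought to a common total adjusted for its composition, the summed level was 17673 and 23999 in the E11 libraries, 16218 and 13292 in those of E16 and 12035 and 16330 in those of P1. On that scale too E11 was the highest age, but the E16 and P1 libraries overlapped.

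Nearly all of these reads came from the 3p arms, which carry the shared seed. Together the 3p arms held 96.0% ± 0.0498 (E11), 96.0% ± 0.373 (E16) and 95.7% ± 0.591 (P1) of the family's counts (SD, n = 2). By mean CPM over the 6 libraries, miR-301a-3p (3986), miR-130b-3p (3827) and miR-301b-3p (3730) led the family, at places 24, 26 and 27 among named entries. Then came miR-130a-3p (1794), miR-454-3p (1587) and miR-130c-3p (986), at places 43, 49 and 63. CPM was not scaled by length, so levels of different miRNAs are compared as reads. The 3 leading arms did not differ beyond their spread over the libraries. miR-130a-3p was above miR-454-3p in 5 of 6 libraries, and miR-130c-3p was lowest of the 6 in every library.

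The 4-gene neighbour group was taken by name. Of its 3p arms, miR-130b-3p and miR-130a-3p were higher in both E11 libraries than in every later one. miR-301a-3p and miR-454-3p were not. miR-130b-3p had 6291 and 4690 CPM (E11), 3309 and 3343 (E16) and 2248 and 3082 (P1). Each age was separate from the others, where 65.1% of all entries did not overlap between P1 and E11. That share was not taken for the comparisons with E16. miR-301a-3p had 3376 and 8461 CPM at E11, then 3717 and 2521 at E16 and, after hatching, 2489 and 3353 at P1. Its E11 mean rests on replicate 2, which had the highest value of any family member in any library, while replicate 1 was close to the E16 and P1 libraries.

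miR-130a-3p, the member studied in human endothelium, was at 2117 and 2184 CPM in the 2 E11 libraries, 1603 and 1520 in those of E16 and 1316 and 2026 in those of P1. E11 was above the later ages, and the P1 libraries lay on either side of E16. miR-454-3p had 1557 and 1828 CPM (E11), 1620 and 1466 (E16) and 1103 and 1946 (P1), and all 3 ages overlapped.

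The 3p arms taken by name as the neighbouring pair overlapped between all ages. miR-301b-3p had 2751 and 4843 CPM at E11, then 4226 and 3030 at E16 and, after hatching, 3478 and 4055 at P1. miR-130c-3p was at 862 and 1034 CPM in the 2 E11 libraries, 1059 and 922 in those of E16 and 937 and 1103 in those of P1. The 3p arms of the pair summed to 4745 ± 1601, 4619 ± 943 and 4786 ± 525 CPM at E11, E16 and P1 (SD, n = 2). Those of the group of 4 summed to 15252 ± 2703, 9549 ± 990 and 8781 ± 2298 CPM. Both sums place miR-301a-3p in the group of 4 and miR-301b-3p in the pair by name, which is uncertain. The contrast between the sums depends on that placing. miR-301a-3p averaged 5919 CPM at E11 and 2921 at P1, and miR-301b-3p 3797 and 3766.

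**Figure D1:**
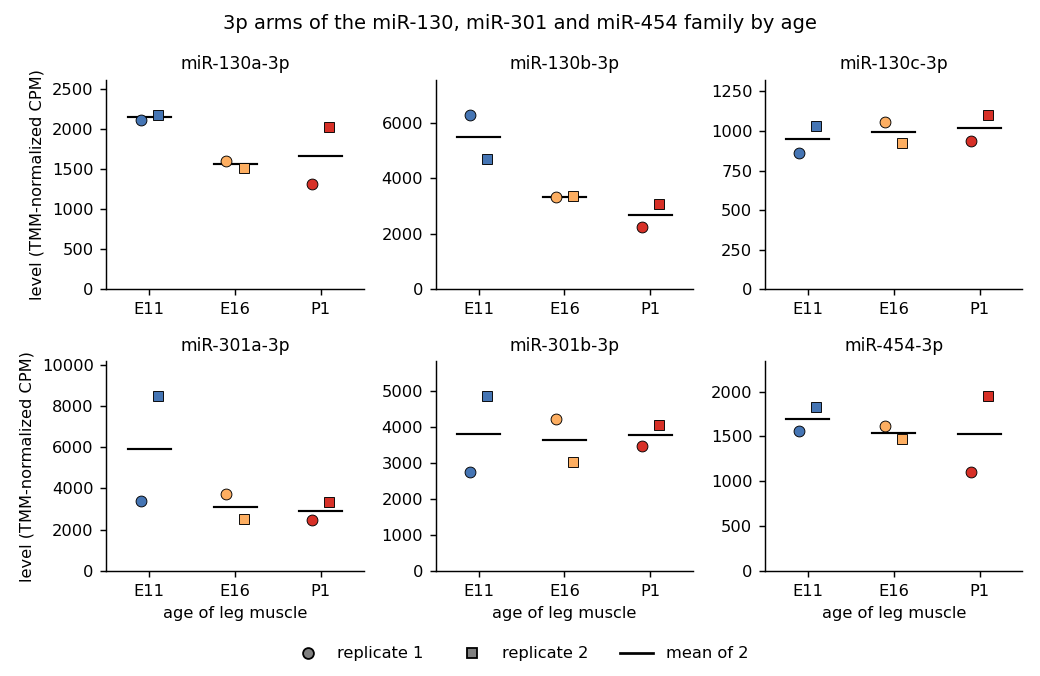
Level of each 3p arm (TMM-normalized CPM, linear axis from 0) in leg muscle at E11, E16 and P1. Points are single libraries and bars the mean of 2. miR-130b-3p is lower at each later age, while miR-301b-3p and miR-130c-3p overlap between all ages, and 1 E11 library of miR-301a-3p stands at 8461 CPM.

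The most abundant arm was miR-130b-3p in E11 replicate 1 and E16 replicate 2, miR-301a-3p in E11 replicate 2, and miR-301b-3p in E16 replicate 1 and in both P1 libraries. As a share of the family's 3p counts, which does not depend on scaling between libraries, miR-130b-3p had 37.1% and 20.4% (E11), 21.3% and 26.1% (E16) and 19.4% and 19.8% (P1). miR-301b-3p had 16.23% and 21.0%, 27.2% and 23.7%, and 30.1% and 26.1% at the same ages.

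Together miR-301b-3p and miR-130c-3p held 21.3% and 25.5% of the 3p counts at E11, then 34.0% and 30.9% at E16 and, after hatching, 38.2% and 33.1% at P1. Both E11 libraries were below all 4 later ones, with E16 and P1 overlapping. Since the miR-301 names are uncertain, the share was also taken without them. miR-130c-3p then held 7.96% and 10.6% in the E11 libraries, 14.0% and 12.7% in those of E16 and 16.7% and 13.5% in those of P1, again lowest at E11. With 2 samples against 2, an exact two-sided permutation test cannot give a p below 0.333, so these shares are described and not tested.

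**Figure D2:**
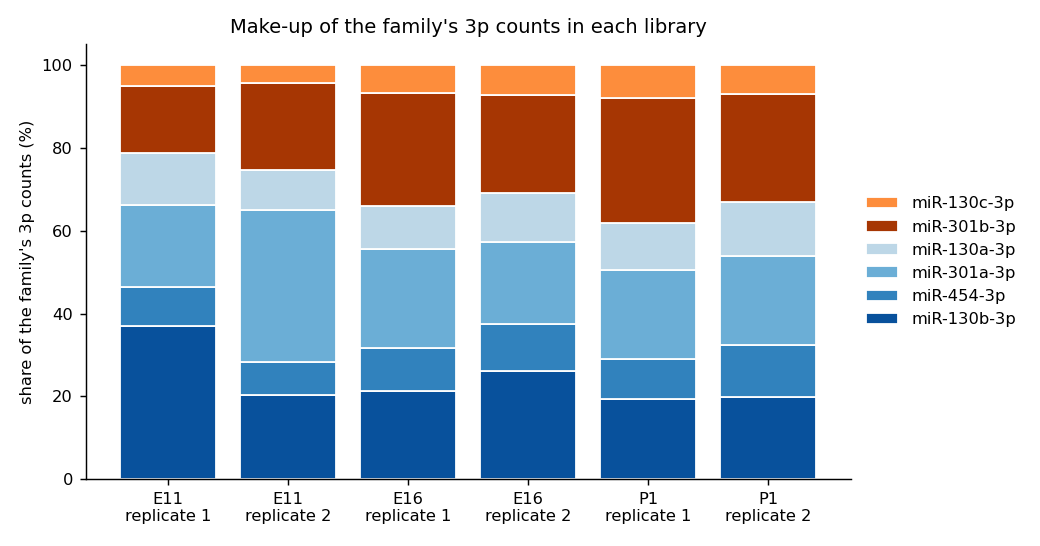
Share of the family's 3p counts (%) taken by each member in each library. Blue segments are miR-130b-3p, miR-454-3p, miR-301a-3p and miR-130a-3p. Orange and brown ones are miR-130c-3p and miR-301b-3p, whose joint share is 21.3% and 25.5% at E11 and between 30.9% and 38.2% later. Which neighbour group each miR-301 entry belongs to is uncertain.

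The 5p arms, the less abundant strand of every hairpin here, differed widely between hairpins. In miR-130b the 5p arm held 7.87% to 15.1% of the hairpin's counts, in miR-130a 4.61% to 8.35% and in miR-130c 1.14% to 4.14%. In miR-301a it held 0.168% to 0.943%, in miR-301b 0.223% to 1.15%, and in miR-454 at most 0.187%. miR-454-5p had 8 counts in all and was not listed in E11 replicate 2, where 0 of 1268 miR-454 counts allows a share of up to 0.237%, taking 3 counts as the limit for a count of 0. It was the only member that did not pass the filter on low counts.

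Between ages, the 5p share of miR-130b was 7.87% and 12.3% (E11), 13.3% and 9.71% (E16) and 13.6% and 15.1% (P1). P1 was above both earlier ages, which overlapped each other. The exact 95% intervals of P1 replicate 1 (12.8% to 14.5%) and E16 replicate 1 (12.4% to 14.3%) overlapped, however. The 5p share of miR-301b was 1.15% and 0.709% at E11, then 0.339% and 0.340% at E16. At P1 it was 0.260% and 0.223%, lower at each later age. These rest on 10 to 24 reads of the 5p arm per library. The hairpin's counts ran from 953 in E11 replicate 1 to 8089 in P1 replicate 1. The part of depth in this share was not tested, and the arms were paired by name. The exact 95% interval of E11 replicate 1 ran from 0.578% to 2.06%. Between E16 and P1 the intervals overlapped, at 0.201% to 0.536% for E16 replicate 1 and 0.161% to 0.397% for P1 replicate 1. For miR-301a the share was 0.943% and 0.289% in the E11 libraries and 0.236% and 0.489% in those of E16. It was 0.311% and 0.168% in those of P1, with every age overlapping the others.

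miR-130b-5p had 537 and 656 CPM (E11), 508 and 359 (E16) and 355 and 550.0 (P1). miR-130a-5p had 102 and 199 CPM at E11, then 137 and 91.9 at E16 and, after hatching, 79.8 and 178 at P1. For both arms the E11 and P1 libraries overlapped. miR-130c-5p had 11.7 and 44.7 CPM at E11, the second from 31 reads and the first from 4, against 10.8 to 22.6 CPM in the later libraries.

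In CPM, the 5p arms of miR-301 did not overlap between any of the ages, which was also so for miR-130b-3p. miR-301a-5p was at 32.1 and 24.5 CPM in the 2 E11 libraries, 8.79 and 12.4 in those of E16 and 7.76 and 5.65 in those of P1. miR-301b-5p had 32.1 and 34.6 CPM (E11), 14.4 and 10.3 (E16) and 9.05 and 9.04 (P1). Between P1 and E11, 65.1% of all entries did not overlap either. The share over all entries was not taken for the comparisons with E16, so separation there has no background beside it. Both arms passed the filter on low counts only through the earlier ages. The gap between E16 and P1 rests on few reads. For miR-301a-5p it was 11 reads (8.79 CPM) in E16 replicate 1 and 18 reads (7.76 CPM) in P1 replicate 1. The separation is thus not a result about the family. No role of either strand is stated here.

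**Figure D3:**
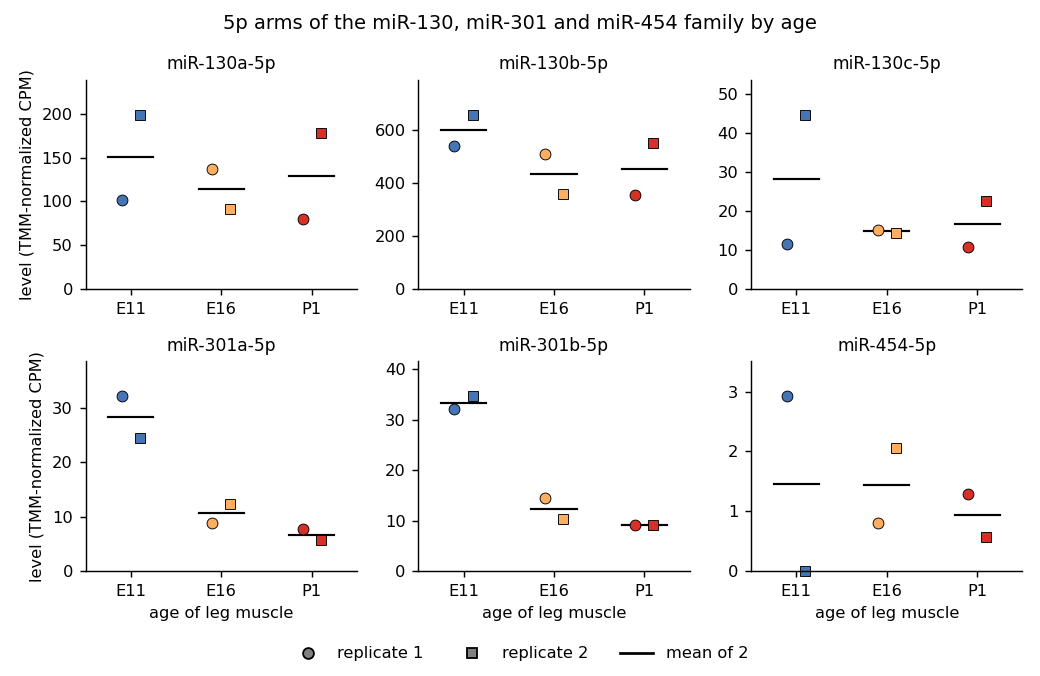
Level of each 5p arm (TMM-normalized CPM, linear axis from 0) at E11, E16 and P1, drawn as for the 3p arms. miR-301a-5p and miR-301b-5p are highest in both E11 libraries, at 24.5 to 34.6 CPM, and at or below 14.4 CPM later.

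Their raw counts, however, did not follow depth. miR-301a-5p had 11 and 17 counts at E11, then 11 and 12 at E16 and, after hatching, 18 and 10 at P1. miR-301b-5p had 11 and 24, 18 and 10, and 21 and 16 counts. Each thus had nearly the same total over the 2 libraries of every age, 28, 23 and 28 for miR-301a-5p and 35, 28 and 37 for miR-301b-5p. In single libraries they had 10 to 18 and 10 to 24 counts, while the deepest library held 8.70 times the counts of the shallowest. Entries of low level more often shared that direction. Of 93 tested entries with a mean under 30 CPM, 63.4% were lower at P1 than at E11, with a median log2 fold change of -0.56, and 23.7% were called lower and 6.45% higher. Of 114 entries over 300 CPM, 50.0% were lower, 14.0% were called lower and 21.9% higher. The part of depth in the values of the miR-301 5p arms was not tested.

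**Figure D4:**
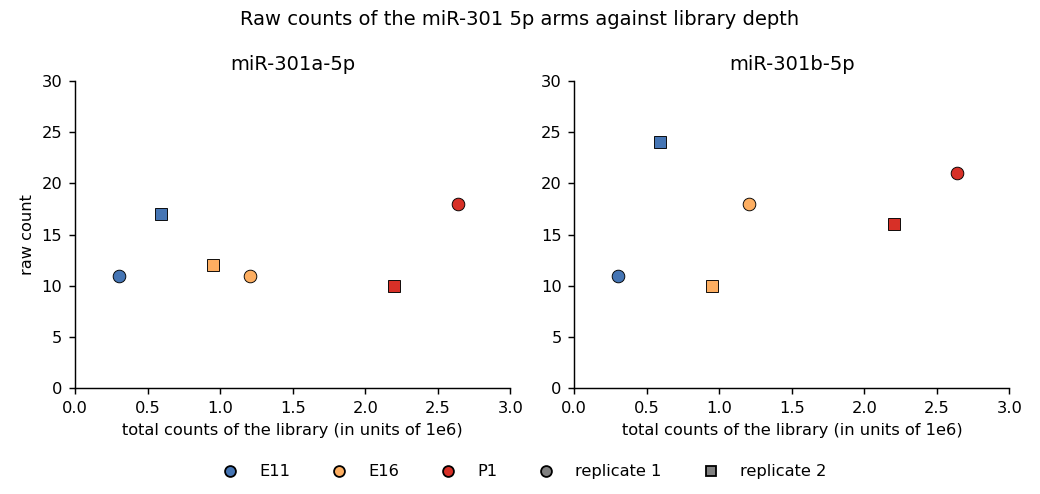
Raw counts of miR-301a-5p (left) and miR-301b-5p (right) against the total counts of each library, 1 point per library. Counts stay between 10 and 24 although totals run from 303556 to 2641042.

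The comparison of E16 with E11 asked how the family differed between 2 stages of embryonic muscle. With edgeR's quasi-likelihood test, adjusted by Benjamini-Hochberg over 289 entries, 0 of the 11 tested members passed, beside 6.57% of all entries. DESeq2 also called 0 of the members. At an unadjusted p under 0.05 there were 2, miR-301a-5p (log2 fold change -1.40, SE 0.52, adjusted p = 0.147) and miR-301b-5p (-1.42, SE 0.49, adjusted p = 0.124), beside 24.2% of all entries. Of the 3p arms, miR-301a-3p had -0.92 (SE 0.50) and miR-130b-3p -0.72 (SE 0.35). Without E11 replicate 2, miR-301a-3p had -0.14. The median over the 11 members was -0.46, against -0.03 over all entries tested.

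Across hatching, from E16 to P1, log2 fold changes ran from -0.63 (miR-301a-5p, SE 0.51) to 0.17 (miR-130a-5p, SE 0.63). Between these, miR-130b-3p was at -0.32 (SE 0.34) and miR-301b-5p at -0.45 (SE 0.48). In edgeR 0 of 11 members passed, beside 0% of all entries, and DESeq2 called 0 members. No member had an unadjusted p under 0.05, beside 12.8% of all entries. The members' median was 0.04, against 0.09 over all entries.

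Between P1 and E11, the ends of the series, miR-301a-5p and miR-301b-5p were called lower. Both passed the filter only through the earlier ages, where they were higher, so the calls are no independent support for a fall. Raw totals at E11 and P1 were 28 and 28 for miR-301a-5p, and 35 and 37 for miR-301b-5p. miR-301a-5p averaged 6.71 ± 1.49 CPM at P1 and 28.3 ± 5.39 CPM at E11 (SD, n = 2 each), a log2 fold change of -2.04 (SE 0.51, edgeR Benjamini-Hochberg adjusted p = 0.0304). miR-301b-5p averaged 9.05 ± 0.00618 CPM at P1 and 33.4 ± 1.75 CPM at E11. Its log2 fold change was -1.88 (SE 0.48, edgeR Benjamini-Hochberg adjusted p = 0.0318). Its P1 values rest on 21 and 16 reads, so that small SD does not measure how well the level is known. The called arms are 2 of 11 tested members, beside 30.4% of all entries called and 16.3% called lower. The count of members that fell is thus near the background and is not a result about the family.

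Neither call was firm. Each was lost in 10 of 13 alternatives, among them all 6 fits without 1 library, where the adjusted p lay between 0.0781 and 0.171 for miR-301a-5p and between 0.0723 and 0.147 for miR-301b-5p. DESeq2 gave adjusted p values of 0.0917 and 0.0822 for the same arms. The log2 fold change lay between -2.48 and -1.71 for miR-301a-5p and between -2.33 and -1.56 for miR-301b-5p over the 13 alternatives. However, no P1 library reached the filter's minimum of 9.30 CPM for either arm. miR-301a-5p was kept through both E11 libraries and 1 E16 library, and miR-301b-5p through the 2 libraries of each of those ages, so the filter kept both arms through the ages where they were higher. Epithelial markers, which took at least 1.18% of counts at E11 and at most 0.0997% later, moved in the same direction, and their part in the result was not tested.

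No 3p arm passed between P1 and E11. miR-130b-3p came closest, with 2665 ± 589 CPM at P1 and 5490 ± 1132 at E11 (SD, n = 2 each), a log2 fold change of -1.04 (SE 0.35, edgeR Benjamini-Hochberg adjusted p = 0.0582). It passed with 4 of the 13 alternatives, one of them the fit without E11 replicate 2 (-1.28, adjusted p = 0.0363). Without E11 replicate 1 it had -0.76 (adjusted p = 0.143), and without 1 library of E16 or P1 the adjusted p lay between 0.125 and 0.209. miR-301a-3p had -1.02 (SE 0.50, adjusted p = 0.162), which became -0.25 without E11 replicate 2 and -1.48 without E11 replicate 1. miR-130a-3p had -0.36 (SE 0.37), miR-454-3p -0.15 (SE 0.41), miR-301b-3p -0.01 (SE 0.40) and miR-130c-3p 0.11 (SE 0.38), and the signs of the last 3 turned under other settings. Whether miR-130b-3p and miR-301b-3p differ in their change was not tested.

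Among the other 5p arms, miR-130c-5p had -0.84 (SE 0.69), miR-130b-5p -0.40 (SE 0.47) and miR-130a-5p -0.23 (SE 0.64). Without E11 replicate 2, miR-130c-5p had 0.45 and miR-130a-5p 0.28. The median of the 11 members was -0.40, against -0.15 over all entries, and 5 of the 11 did not overlap between P1 and E11, beside 65.1% of all entries.

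**Figure D5:**
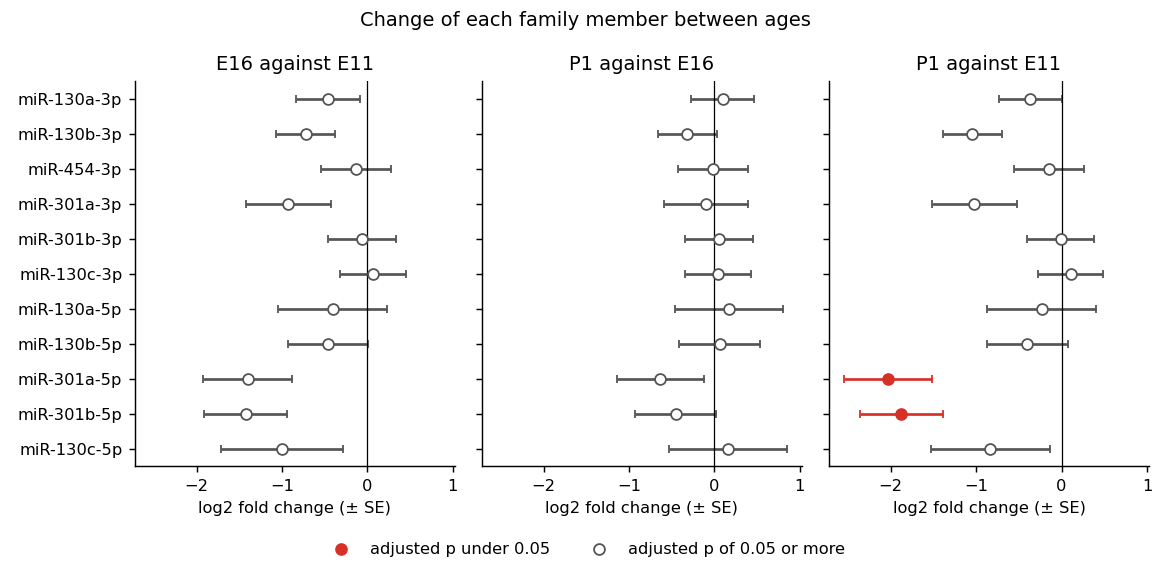
Log2 fold change of each of the 11 tested members, with its standard error, in the 3 comparisons of ages (negative values are lower at the later age). Filled red points have an adjusted p under 0.05, which holds for miR-301a-5p and miR-301b-5p in P1 against E11 and for no other member in any comparison.

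The list of miRNAs taken for their overlapping 3p seeds held 6 entries, both arms of miR-148a, miR-19a and miR-19b. Only their 3p seeds are meant, which match that of the family when shifted along by a base. The 5p arms were listed with them as the other arm of the hairpin. miR-148a-3p, which promotes myogenic differentiation in mouse, was far more abundant than the family, with 76489 and 83106 CPM at P1 and 68323 and 53748 CPM at E11. It did not pass between those ages (log2 fold change 0.39, SE 0.29). The level of miR-19b-3p, from the miR-17-92 cluster, was 3724 ± 1871 (E11), 3068 ± 812 (E16) and 2814 ± 495 CPM (P1), and that of miR-19a-3p was 1400 ± 947, 1203 ± 446 and 1299 ± 166 CPM (SD, n = 2). Of the 5 tested entries of that list, 0 passed at E16 against E11 and at P1 against E16 by edgeR, where 1 had an unadjusted p under 0.05 in each, beside 24.2% and 12.8% of all entries. At P1 against E11, 1 of the 5 fell, beside 16.3% of all entries called lower. DESeq2 called 0, 0 and 1 in the same order. No 3p arm of the list was called by either method. The entry that fell was miR-19a-5p (-2.87, SE 0.55, edgeR Benjamini-Hochberg adjusted p = 0.0147). It too had few reads, 6 and 3 at P1 against 6 and 11 at E11, and passed the filter through the E11 libraries alone. Its call was kept in 7 of the 13 alternatives and lost in all 6 fits without 1 library. miR-148a-5p had 754 and 906 CPM at P1 against 2926 and 1354 CPM at E11 (-1.37, SE 0.49, adjusted p = 0.0727). Without E11 replicate 1 it had -0.65 (adjusted p = 0.329), and without E11 replicate 2 -1.85 (adjusted p = 0.0329).

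The entries whose course over the 6 libraries was most like that of the leading members were found among 188 named entries outside the family, by the root mean square difference of centred log2 CPM. For miR-301a-3p these were miR-221-5p (0.22), miR-19b-3p (0.29), miR-18b-5p (0.29), miR-458b-5p (0.30) and miR-1552-3p (0.31), where the median entry had 0.93. For miR-130b-3p they were miR-20b-5p (0.17), miR-125b-3p (0.19), miR-103-3p (0.20), miR-456-3p (0.21) and miR-106-3p (0.24), where the median entry had 0.81. The leading members differed from each other by 0.54, below both medians. The listed entries were picked as the nearest of 188, so a larger value for this fixed pair is not a result. Within the family, miR-130a-3p was the closest to miR-130b-3p (0.30), and miR-130c-5p, a low-count arm, the closest to miR-301a-3p (0.29).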

How the data were processed

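Trizol RNA and Illumina miRNA library protocols are given per the labels' protocols. The labels also call the RNA RNase R treated and ribosome-depleted, with no word on what this meant for small RNA. The submitters' processing notes name Trim Galore, Bowtie, TopHat, Cufflinks and build galGal4, without roles, and no source used here names the miRNA counting program. The deposited values were read as counts, against the file headers' FPKM: all were whole numbers, the smallest and most frequent value was 1, and FPKM of such short RNAs would sum to far more. Were they rounded FPKM, the count tests would be unsuitable. Unlisted entries were set to 0. Provisional entries took 32.1% to 42.9% of counts and stayed in totals and tests.

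Computation used R 4.3.3, edgeR 4.0.16 and, as an alternative, DESeq2 1.42.0. filterByExpr (minimum count 10, minimum total 15) kept 289 entries, 199 named and 11 of the family. After TMM scaling, 1 quasi-likelihood fit over the 6 samples, with age as the factor, left 3 residual degrees of freedom. The tests were two-sided with Benjamini-Hochberg adjustment over all entries and a threshold of 0.05, and the biological coefficient of variation was 0.466. The SE is the log2 fold change divided by the square root of F. "Rose" and "fell" mark entries past the threshold. Replicates differed by far more than sampling noise (chi-square per degree of freedom 264, 171 and 489 at E11, E16 and P1) and were kept apart. Shares have exact (Clopper-Pearson) 95% intervals, and a share of 0 has a limit of 3 counts. All family members are named, with the seed list and the 5 entries nearest in course to each of the most abundant pair. Members and lists were chosen with earlier results of these data known. The split by mean CPM and the share without miR-301 were chosen after the values were seen.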

Additional observations from a re-analysis of the deposited data

How the results depend on the processing

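In the E16 against E11 and P1 against E16 comparisons, 0 family members were called under each of the 13 alternatives. At P1 against E11 the 2 calls became 0 without a filter on low counts, with DESeq2, with the replicate block and with only the 2 ages compared. They became 3 with RLE, with no scaling and with named entries alone (miR-130b-3p added). Over all entries, the 88 calls of that comparison became 99 of 846 tested without a filter and 90 with DESeq2. They became 81 with RLE, 84 with no scaling and 70 of 196 tested with named entries alone. Neither miR-301 5p call was kept in any fit without 1 library. In the fit without E11 replicate 2, miR-130b-3p had a log2 fold change of -1.28. The cause of these changes in calls was not tested. The labels do not say what a replicate number marks. Deviations of same-numbered libraries correlated at -0.02 (E11 and E16), -0.03 (E11 and P1) and 0.33 (E16 and P1) over 289 entries. These values do not settle whether the numbers pair the samples. With the replicate block, edgeR's quasi-likelihood test gave adjusted p = 0.0628 for both miR-301 5p arms. Over all entries, 19 calls at E16 against E11 became 46 without a filter, 36 with DESeq2, 12 with named entries alone and 0 to 11 without 1 library. At P1 against E16, 0 became 13 without a filter, 1 with DESeq2 and 0 to 1 without 1 library. At P1 against E11, 88 became 30 with the replicate block, 28 with only the 2 ages and 10 to 61 without 1 library.

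Among uncalled members at P1 against E11, log2 fold changes turned round for miR-130a-5p (0.046 without a filter, -0.86 to 0.28 without 1 library), miR-130c-3p (-0.36 with no scaling), miR-130c-5p (-1.37 to 0.45 without 1 library), miR-454-3p (0.13 without a filter, -0.56 to 0.15 without 1 library) and miR-301b-3p (0.027 with RLE, 0.30 without a filter, 0.11 with DESeq2, 0.0065 with the replicate block, -0.31 to 0.42 without 1 library), as did miR-148a-3p (-0.068 with no scaling). Signs also turned in 11 of 143 values at E16 against E11 and 25 of 143 at P1 against E16, none of them called. With no scaling the median of all entries moved by -0.47 at P1 against E11, by -0.30 at P1 against E16 and by -0.16 at E16 against E11, and relative to that median miR-130b-3p had -0.88, against -0.89 with TMM at P1 against E11. The split of calls there was 20 higher and 64 lower with no scaling, against 41 and 47. With named entries alone in the total, the family's share was 4.06%, 2.43% and 1.78% at E11, E16 and P1. With 2 libraries per age, a mean share without 1 of them is the other library's own share. At E11 the share of miR-130b-3p in the family's counts, 27.6% on average, was 19.5% without replicate 1 and 35.6% without replicate 2, and that of miR-301a-3p, 27.2% on average, was 35.3% and 19.1%. The 5p arms of miR-301 and miR-454 had at most 24 counts in any library, and miR-130c-5p had as few as 4.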
